A study of Homo sapiens with 20 samples.

Results

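*CXCL1*, *CXCL2*, *CXCL3*, *CXCL5*, *CXCL6* and *CXCL8* encode secreted CXC chemokines that attract neutrophils. These 6 genes were taken by symbol from the 58233 Ensembl genes counted in 20 RNA-seq libraries of human lung cancer cell lines. They were picked with the effect of *ADAR* KO in each line, and its interaction with IFN-β, already known. Values of those contrasts are therefore a description and carry no p-value for these 6 genes. HCC366 (lung adenosquamous carcinoma), NCI-H1650 (lung adenocarcinoma) and NCI-H196 (variant small cell lung cancer) are lines that depend on ADAR1. They were untreated, and RNA was isolated on day 5 from the transduction. A549 (lung adenocarcinoma) does not depend on ADAR1, and these cells were kept for 24 h with sterile water (vehicle) or with IFN-β at 10 ng/mL. In every group, controls included, the cells were transduced pools that carried Cas9 and an sgRNA from a lentiviral vector, directed at *GFP* (control) or at *ADAR* (*ADAR* KO). There were 2 libraries per condition, with a different sgRNA in each (sg1 and sg2), so the spread given here is between 2 sgRNAs and not between repeats of the experiment.

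These chemokines share a glutamate-leucine-arginine motif before their CXC cysteines and act through CXCR2 on neutrophils, and CXCL6 and CXCL8 also through CXCR1. In epithelial cells their genes are induced by IL-1 and TNF through NF-kB, together with AP-1 and C/EBP factors. Their mRNAs carry AU-rich elements through which ZFP36 and related proteins shorten mRNA half-life. IFN-β acts through another receptor, and the CXC chemokines typical of its response are CXCL9, CXCL10 and CXCL11, which attract lymphocytes. ADAR1, the product of *ADAR*, edits adenosine to inosine in double-stranded RNA, and its loss can leave such RNA to be sensed by PKR and other proteins.

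All 6 genes lie within 358.7 kb of chromosome 4, each with 4 exons in its canonical transcript (GRCh37, GENCODE annotation mapped to that build). *CXCL8* (74606236 to 74609433), *CXCL6* (74702357 to 74714781) and *CXCL1* (74735110 to 74737025) are on the plus strand. *CXCL5* (74861359 to 74864394), *CXCL3* (74902306 to 74904524) and *CXCL2* (74962757 to 74964913) are on the minus strand. The platelet chemokine genes *PF4V1*, *PF4* and *PPBP* lie among them, and a pseudogene of *PPBP* overlaps *CXCL6*. Of all 100-base windows of their transcripts, 5.34% of those of *CXCL2* and 3.27% of those of *CXCL3* were identical between this pair, so a read lying wholly within such a stretch could not be assigned to one of them. None of the other 4 genes shared such a window with another member.

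**Figure D1:**
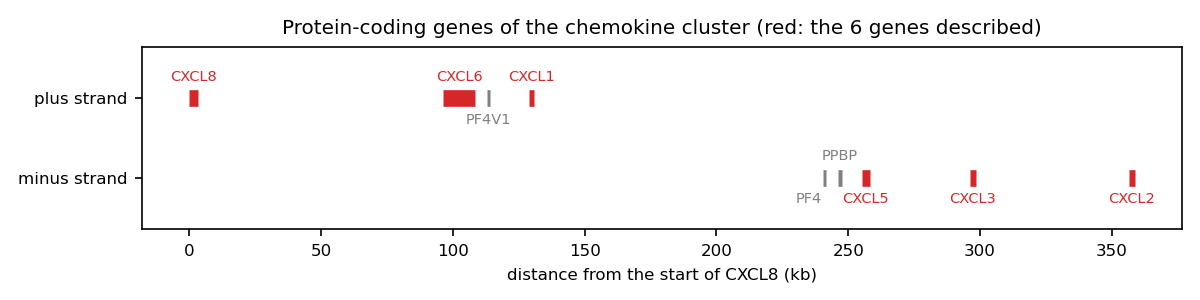
Protein-coding genes of the chemokine cluster by strand, against distance in kb from the start of *CXCL8*; red bars are the 6 genes described and gray bars the platelet chemokine genes among them. *CXCL8*, *CXCL6* and *CXCL1* sit on the plus strand and *CXCL5*, *CXCL3* and *CXCL2* on the minus strand, within 358.7 kb.

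The promoters of all 6 genes hold the same 9 letters on the strand of the gene, and the stretches that contain them are shown because several of the 6 genes were higher together after *ADAR* KO. Whether these letters had a part in that was not tested. GGAATTTCC, which has the form of an NF-kB site, was the longest run present in each of the 6 RefSeq promoters (GRCh38.p14, 250 bases before to 50 after the start, 300 in all). Each line below covers bases -100 to -51 from the RefSeq start, written 5′ to 3′ on the strand of the gene, with that run in capitals.
CXCL1: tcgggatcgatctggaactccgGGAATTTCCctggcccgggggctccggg
CXCL2: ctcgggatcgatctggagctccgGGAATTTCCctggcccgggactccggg
CXCL3: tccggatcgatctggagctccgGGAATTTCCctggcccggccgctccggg
CXCL5: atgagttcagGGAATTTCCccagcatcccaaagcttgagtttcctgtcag
CXCL6: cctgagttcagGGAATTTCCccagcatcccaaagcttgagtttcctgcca
CXCL8: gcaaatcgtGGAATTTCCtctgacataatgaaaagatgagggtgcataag

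Each stretch matched GRCh37 exactly and once, at chr4:74735010-74735059 for *CXCL1*, chr4:74964963-74965012 for *CXCL2*, chr4:74904457-74904506 for *CXCL3*, chr4:74864445-74864494 for *CXCL5*, chr4:74702295-74702344 for *CXCL6* and chr4:74606186-74606235 for *CXCL8*. In the GENCODE annotation the stretch of *CXCL3* lies inside the gene, because its longest transcript starts further upstream. The run opened 91 bases before the start in *CXCL8* and between 77 and 90 bases before it in the other 5 genes. It occurred, on either strand, in 162 of 35116 promoters of this length, or 0.461%. The letters were read off these 6 promoters, so their presence in 6 of 6 is a description. The wider pattern GGNNTTNCC, which contains that run, was present in all 6 and in 17.1% of all promoters. The AP-1-type letters TGANTCA were in the *CXCL8* promoter, where they opened at base -137, and in 7.71% of all promoters, and were not found in the windows of the other 5. The promoters of *CXCL1* and *CXCL2* shared a run of 42 bases and those of *CXCL5* and *CXCL6* one of 45 bases, whereas *CXCL8* shared no more than 9 bases with any other member.

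The A549 libraries held 7381566 to 19520189 reads on genes, those of NCI-H1650 4178438 to 5440992 and those of HCC366 1116439 to 3440707. In NCI-H196, GFP sg1 held 9156750 but GFP sg2 62679, so that a single read in the latter stood for 15.95 CPM (reads per 1000000 reads of the library) before scaling. Alignments to several places, which are not counted, made up 85.6% in HCC366 ADAR sg2, against 22.5% to 59.1% elsewhere. *ADAR* mRNA was 804 and 1101 CPM in the GFP and 571 and 490 CPM in the ADAR libraries of HCC366, a log2 fold change of -0.84 that did not pass the test (standard error 0.31, adjusted p = 0.208, edgeR's quasi-likelihood test). In the other lines *ADAR* fell, by 0.41 (log2) in NCI-H196 and 1.29 in NCI-H1650, and in A549 by 1.08 with vehicle and 0.60 with IFN-β. The epithelial keratin gene *KRT8* led its marker list in every line, but the summed level of the 5 epithelial markers was 52.3 to 58.9 CPM in NCI-H196 against 1759 CPM or more in the other lines. No read was counted for 3 of 5 neuroendocrine markers in NCI-H196, as in HCC366, and the summed level of the 4 fibroblast markers was 4006 CPM or more in NCI-H196 against 111.4 CPM or less in the other lines. *NKX2-1*, *SFTPB* and *NAPSA*, markers of the adenocarcinoma lineage, summed to no more than 5.21 CPM in any condition, and the 3 squamous markers to no more than 4.725 CPM in HCC366. The squamous sum was 67.1 to 68.2 CPM in NCI-H1650, 23.5 to 27.8 CPM in NCI-H196 and 3.14 to 3.52 CPM in A549. The 5 neuroendocrine markers summed to 16.8 to 24.3 CPM in NCI-H1650 and to 7.98 CPM or less in the other lines.

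In *GFP* control cells, the 4 lines differed in which of these chemokine mRNAs they held. CPM in this comparison were scaled across all 20 libraries by the TMM method (trimmed mean of M-values), and pairs of lines were compared between their GFP libraries by edgeR's quasi-likelihood test. The A549 controls were kept with vehicle and the other lines were untreated. In pairs with A549, line and handling therefore cannot be told apart. Of 30 differences (5 genes tested in 6 pairs of lines), 23 were past an adjusted p of 0.05, against 48.9% of all gene-by-pair tests. *CXCL6* was not tested because of its low counts. Without GFP sg1 of NCI-H196, which leaves that line with its shallow library, 15 were past it.

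*CXCL8*, the chemokine most studied as a neutrophil attractant, was at 412 and 94.1 CPM in the GFP libraries of NCI-H196, 33.6 and 32.7 CPM in HCC366, 9.27 and 6.69 CPM in NCI-H1650 and 4.47 and 8.46 CPM in A549 with vehicle. Both NCI-H196 libraries were above all others, though the 94.1 CPM of its GFP sg2 stands for 9 reads. NCI-H1650 overlapped A549. NCI-H196 exceeded HCC366 by 3.33 ± 0.37 (log2, standard error; adjusted p = 5.24e-09), or by 1.51 and not past the test without NCI-H196 GFP sg1 (adjusted p = 0.462). HCC366 exceeded NCI-H1650 by 2.04 ± 0.43 (adjusted p = 0.000236). NCI-H1650 and A549, the lowest pair in the order, did not differ beyond their spread (0.23 ± 0.44, adjusted p = 0.687).

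*CXCL5*, which encodes an epithelial neutrophil attractant, was at 329.6 and 378 CPM in A549 with vehicle and at 6.70 and 3.14 CPM in NCI-H1650. No read of it was counted in the GFP libraries of HCC366 or NCI-H196. Taking 3 reads over the 2 GFP libraries of a line as the floor, A549 was at least 605-fold higher than HCC366 and at least 1226-fold higher than NCI-H196. NCI-H1650 was 6.15 ± 0.27 (log2) below A549 (adjusted p = 2.72e-18).

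*CXCL1*, a ligand of CXCR2, was at 55.8 and 46.3 CPM in HCC366, 32.9 and 39.8 CPM in A549, 2.76 and 2.51 CPM in NCI-H1650 and 0.971 and 0 CPM in NCI-H196. HCC366 and A549 did not overlap, but their difference did not pass the test (0.45 ± 0.20, adjusted p = 0.0619). NCI-H1650 was 3.78 ± 0.28 below A549 (adjusted p = 2.62e-13) and 1.44 ± 0.55 above NCI-H196 (adjusted p = 0.0296), where a total of 10 reads were counted. The first of these differences passed with DESeq2 (adjusted p = 0.0263), and the last did not without a count filter or without any one of 3 of the GFP libraries of these lines.

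*CXCL2*, a close relative of *CXCL1*, was at 26.5 and 10.5 CPM in NCI-H196, 25.1 and 26.2 CPM in A549 and 18.6 and 15.3 CPM in HCC366. None of the differences among these 3 lines passed the test, with adjusted p from 0.0622 to 0.99, but HCC366 was below A549 (adjusted p = 0.0197) and NCI-H196 (adjusted p = 0.0229) in a fit of the 8 GFP libraries alone. NCI-H1650, at 3.94 and 3.14 CPM, was 2.20 ± 0.39 (log2) below HCC366 (adjusted p = 2.47e-05). *CXCL3*, the member nearest to *CXCL2* in sequence and position, was at 10.6 and 0 CPM in NCI-H196, 6.07 and 7.96 CPM in A549, 5.72 and 1.87 CPM in HCC366 and 0.394 and 0.837 CPM in NCI-H1650. In NCI-H196 GFP sg2 the 10.5 CPM of *CXCL2* stands for 1 read. With 0 reads of *CXCL3* at that depth, the place of NCI-H196 for *CXCL3* rests on GFP sg1. The order for *CXCL3* placed NCI-H196 and A549 together (0.52 ± 0.36, adjusted p = 0.22), followed by HCC366, which was 1.25 ± 0.51 below A549 (adjusted p = 0.0393), and then NCI-H1650, which was 2.27 ± 0.83 below HCC366 (adjusted p = 0.0272). The difference between HCC366 and A549 did not pass in DESeq2 (adjusted p = 0.361) or without HCC366 GFP sg2 (0.742), and that between HCC366 and NCI-H1650 did not without HCC366 GFP sg1 (0.241).

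*CXCL6*, whose product signals through both CXCR1 and CXCR2, was almost uncounted in these cells. It had no read in any of the 8 A549 libraries, where 3 reads would be 0.154 to 0.406 CPM, and it passed the count filter in no line. In NCI-H1650 it had 0 and 0 reads in the GFP and 4 and 1 reads in the ADAR libraries. HCC366 had 1 read in ADAR sg1, and NCI-H196 had 2 in GFP sg1 and 1 in ADAR sg2.

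To compare the 6 genes with each other, counts were divided by exon length, as CPM per kilobase of exon (RPKM), scaled across the 20 libraries. The leading member differed by line. *CXCL8* made up 84.8% of the summed RPKM of the 6 genes in NCI-H196 GFP cells (mean of 2 libraries), *CXCL1* 58.5% in HCC366 and *CXCL5* 74.1% in A549 with vehicle. The 6 genes had only 10 reads in NCI-H196 GFP sg2, and GFP sg1 alone gave 86.6% for *CXCL8*. In NCI-H1650, *CXCL8* (31.3%), *CXCL2* (25.9%), *CXCL1* (19.97%) and *CXCL5* (19.8%) were closer to each other. The summed RPKM was 69.8 and 58.4 in HCC366, 11.4 and 8.34 in NCI-H1650, 181.9 and 209.9 in A549 and 183.6 and 43.9 in NCI-H196. NCI-H1650 was thus below the other lines in every library, though the 43.9 of NCI-H196 GFP sg2 rests on 10 reads. A549 was above HCC366 in both libraries.

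**Figure D2:**
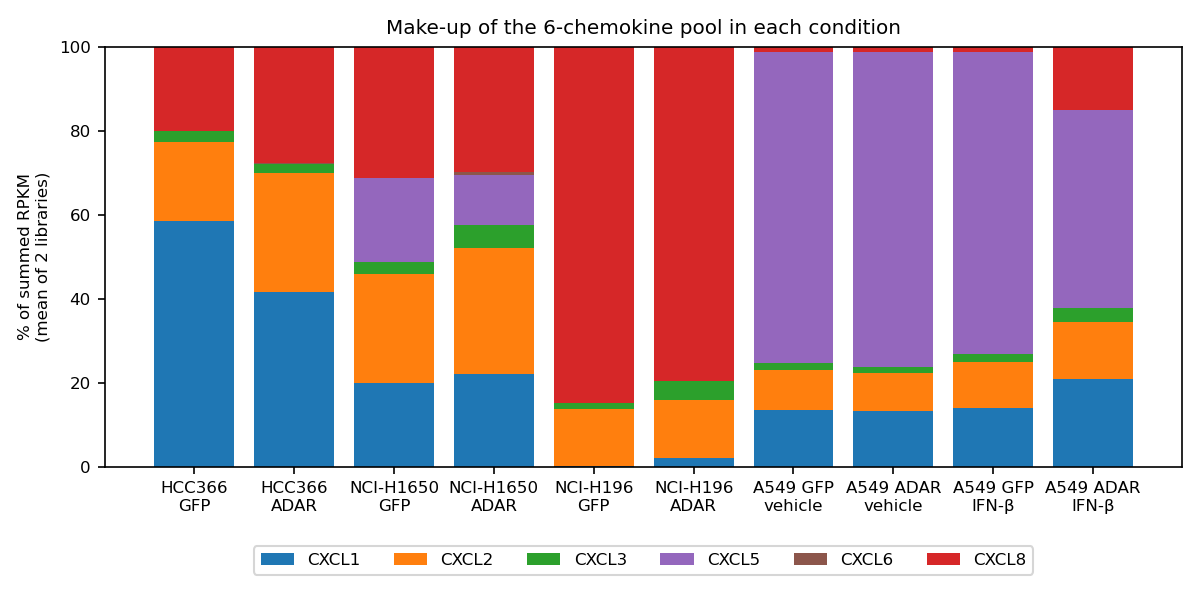
Share of each gene in the summed RPKM of the 6 chemokine genes (percent, mean of 2 libraries) in the 10 conditions. *CXCL5* takes 74.1% in A549 GFP cells with vehicle and 47.3% in A549 *ADAR* KO cells with IFN-β, and *CXCL8* takes 84.8% in NCI-H196 GFP cells. In NCI-H196 GFP sg2 the share rests on 10 reads of the 6 genes.

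After *ADAR* KO, the members that could be tested were higher in the 3 ADAR1-dependent lines. CPM from here on were scaled by TMM within each line. A gene is called past the threshold where its adjusted p in edgeR's quasi-likelihood test over all genes of the fit was below 0.05, and this is given for members as a count without support, because they were picked on these contrasts. Since these are bulk samples, more cells that make a chemokine and more of its mRNA per cell cannot be told apart.

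In HCC366, *CXCL8* was at 36.4 and 35.0 CPM in the GFP and 338 and 188 CPM in the ADAR libraries, *CXCL1* at 60.4 and 49.6 against 213 and 206 CPM, and *CXCL2* at 20.1 and 16.3 against 96.2 and 197 CPM. Both ADAR libraries were above both GFP libraries for each of these 3 genes. The fitted log2 fold changes were 2.88 ± 0.40 (standard error) for *CXCL8*, 1.94 ± 0.33 for *CXCL1* and 3.03 ± 0.45 for *CXCL2*, or 7.36-fold, 3.83-fold and 8.16-fold. *CXCL3* had 8 and 7 reads in the GFP and 15 and 34 in the ADAR libraries (2.35 ± 0.60) and was not past the threshold. Thus 3 of the 4 members tested were past it, all higher, where 1.2% of the 11135 genes tested were past it and higher. The ADAR libraries did not overlap the GFP libraries, upward, for 4 members, as for 25.1% of all genes tested. *CXCL5* and *CXCL6* had 1 read each in the 4 libraries. The calls rested on both control libraries: 0 members were past the threshold without GFP sg1 and 0 without GFP sg2, while the log2 fold changes of *CXCL8*, *CXCL1* and *CXCL2* were between 1.79 and 3.12 in those fits. Whether the low share of unique alignments in ADAR sg2 had a part was not tested. *CXCL8* and *CXCL1* were higher in ADAR sg1 than in sg2, and *CXCL2* and *CXCL3* (13.1 against 22.0 CPM) were lower.

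In NCI-H1650, levels were lower but all 5 members tested were past the threshold and higher, where 6.18% of 14530 genes were. *CXCL8* went from 10.4 and 7.64 CPM to 25.6 and 36.9 CPM (1.78 ± 0.21), *CXCL2* from 4.41 and 3.58 to 14.7 and 19.01 CPM (2.05 ± 0.27) and *CXCL1* from 3.09 and 2.87 to 10.4 and 13.9 CPM (2.01 ± 0.31). *CXCL3* had 2 and 4 reads in the GFP and 17 and 33 reads in the ADAR libraries (2.81 ± 0.54). No GFP library reached an ADAR library for any of the 5 genes, as for 26.2% of genes tested. *CXCL5* showed the smallest difference, from 7.50 and 3.58 to 9.29 and 14.1 CPM (1.04 ± 0.29), and it was not past the threshold without GFP sg2, without ADAR sg2, or in DESeq2 on the same genes. *CXCL3* was not past it without ADAR sg2.

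In NCI-H196, the line with the highest *CXCL8*, this gene was at 473 and 132 CPM in the GFP and 950 and 1332 CPM in the ADAR libraries (1.38 ± 0.11). *CXCL2* was at 30.4 and 14.7 against 90.3 and 125 CPM (1.95 ± 0.14). The 132 and 14.7 CPM of GFP sg2 stand for 9 reads and 1 read. Standard errors in edgeR use a spread partly shared across genes. For *CXCL8*, DESeq2 gave 1.86 with a standard error of 0.86. *CXCL3* had 109 and 0 reads in the GFP and 52 and 473 reads in the ADAR libraries, or 12.2 and 0 against 52.8 and 59.3 CPM (2.27 ± 0.18). *CXCL1* had 10 and 0 reads against 16 and 100 reads (3.53 ± 0.40), and at 12.5 and 16.2 CPM its ADAR libraries lay near the 14.7 CPM of a single read in GFP sg2, so for *CXCL1* the comparison rests on GFP sg1. It also depends on ADAR sg2, without which the value for *CXCL1* was 3.84 with a standard error of 1.40. All 4 members tested were past the threshold and higher, where 10.3% of 14094 genes were, and they did not overlap, as for 25.6% of genes. For *CXCL1* and *CXCL3* this rests in part on 0 reads in GFP sg2, where 3 reads would be 47.9 CPM, so a lower level there was not detectable at this depth. Without GFP sg1 only *CXCL8* was past it (3.16 on the log2 scale), and DESeq2 called 0 of the 4. Among the markers of other cell types, the 1 squamous marker tested and 1 of 4 fibroblast markers rose and 1 of 3 mesenchymal markers fell after *ADAR* KO in NCI-H196, and their part was not tested.

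**Figure D3:**
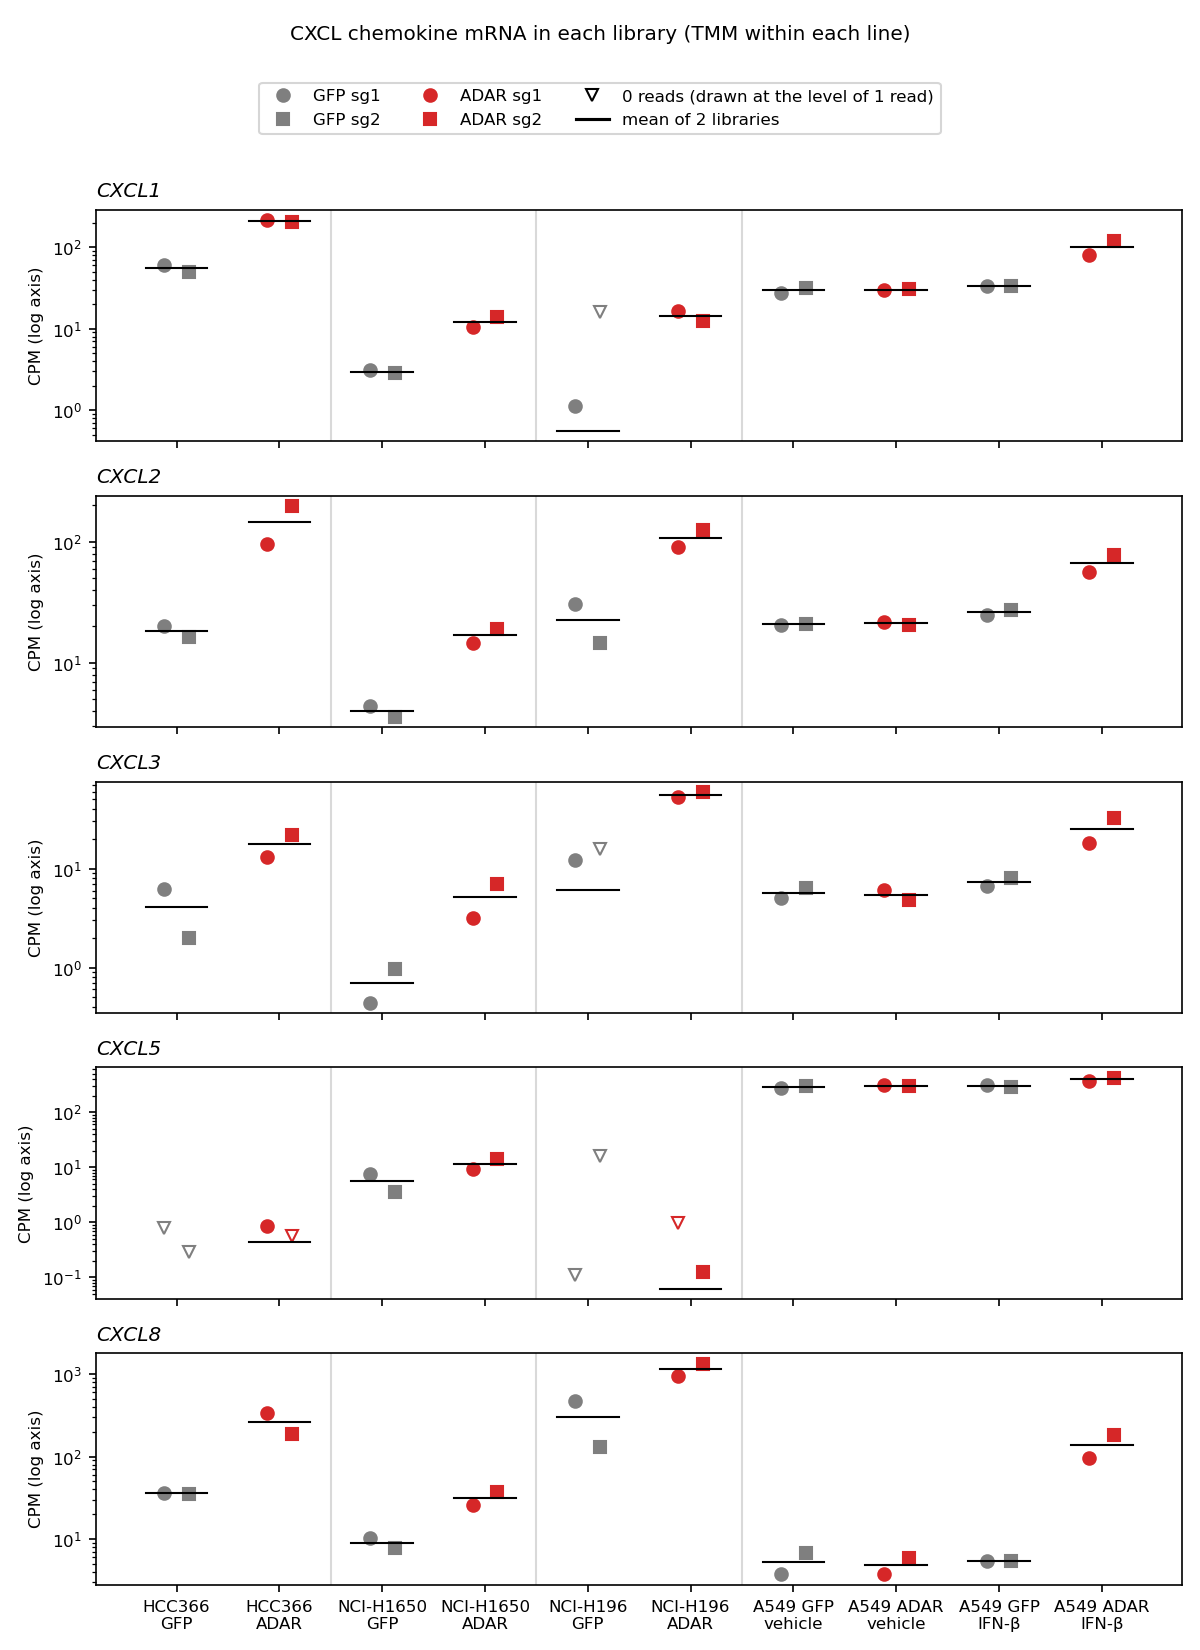
CPM (log axis, TMM within each line) of *CXCL1*, *CXCL2*, *CXCL3*, *CXCL5* and *CXCL8* in each library, by line, sgRNA target and treatment; circles are sg1, squares sg2, bars the mean of 2 libraries, and open triangles libraries with 0 reads, drawn at the level of 1 read. *CXCL8* in A549 stands at 95.0 and 180.2 CPM in *ADAR* KO cells with IFN-β and between 3.69 and 6.77 CPM in the other 6 libraries.

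Over the members tested, the median log2 fold change was 2.61 in HCC366 (4 genes), 2.11 in NCI-H196 (4 genes) and 2.01 in NCI-H1650 (5 genes), beside medians of all tested genes between -0.01 and 0.01. Without NCI-H196 GFP sg1, *CXCL2* (3.01) and *CXCL8* (3.16) had larger values in that line, and no median is given because *CXCL1* and *CXCL3* had 0 reads in the remaining control. The order of the members by fold change within a line was not tested. In RPKM, the summed level of the 6 genes was 372.6 and 564.8 in the ADAR libraries of NCI-H196, 338 and 330.2 in those of HCC366 and 30.0 and 42.25 in those of NCI-H1650, above both GFP libraries in each line. The mix kept its leading gene in HCC366 (*CXCL1*, 41.8%) and NCI-H196 (*CXCL8*, 79.5%), whereas *CXCL2* (30.0%) and *CXCL8* (29.9%) led side by side in NCI-H1650.

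In A549, the question was whether *ADAR* KO acted on these genes with and without IFN-β. With vehicle, *CXCL8* was at 3.69 and 6.77 CPM in the GFP and 3.78 and 5.90 CPM in the ADAR libraries, and *CXCL5* at 272 and 302 against 316 and 294 CPM. *CXCL1* was at 27.2 and 31.9 against 29.6 and 30.3 CPM. GFP and ADAR libraries overlapped for these 3 genes and for *CXCL2* and *CXCL3*. The fitted values ran from -0.19 ± 0.33 (*CXCL8*) to 0.08 ± 0.10 (*CXCL5*), and 0 of the 5 members tested were past the threshold, where 0.123% of 15449 genes were past it in either direction. DESeq2 called 0 as well. The ADAR libraries were above both GFP libraries for 0 members, against 18.8% of genes.

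With IFN-β, all 5 were higher in *ADAR* KO than in GFP cells. *CXCL8* was at 5.35 and 5.34 CPM in the GFP and 95.0 and 180.2 CPM in the ADAR libraries, a log2 fold change of 4.69 ± 0.24 or 25.9-fold. *CXCL1* was at 33.5 and 32.9 against 81.0 and 118 CPM (1.595 ± 0.14), *CXCL2* at 24.9 and 27.5 against 56.1 and 77.7 CPM (1.36 ± 0.15) and *CXCL3* at 6.66 and 7.95 against 17.97 and 32.8 CPM (1.81 ± 0.24). For these 4 genes ADAR sg2 was above ADAR sg1, and both were above every other A549 library. *CXCL5*, the most abundant member in A549, was at 315 and 293 against 376 and 418 CPM (0.39 ± 0.10). Past the threshold were 5 of 5 members tested, all higher, where 10.8% of genes were, and 5 did not overlap, as for 28.2% of genes. *CXCL5* was not past it without ADAR sg2 of the IFN-β condition or in the fit of all 20 libraries. Of the 4 epithelial markers tested in A549, 3 fell and none rose in this comparison, 1 of 3 mesenchymal markers rose and the 1 fibroblast marker tested fell. Their part in the result was not tested.

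The interaction gives the difference between the effect of *ADAR* KO with IFN-β and with vehicle. It was 4.88 ± 0.40 (log2) for *CXCL8*, 1.91 ± 0.38 for *CXCL3*, 1.59 ± 0.21 for *CXCL1* and 1.34 ± 0.22 for *CXCL2*. For *CXCL5* it was 0.30 ± 0.14 and was not past the threshold. Of the 5 members tested, 4 were past it and positive, where 4.07% of genes were. *CXCL3* was not past it without ADAR sg2 of the IFN-β condition.

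IFN-β alone did not move these genes past the test in A549 GFP cells, a contrast that the choice of genes did not name but whose libraries also enter the interaction. *CXCL2* was at 20.7 and 21.0 CPM with vehicle and 24.9 and 27.5 CPM with IFN-β (0.33 ± 0.16, adjusted p = 0.302 by edgeR's quasi-likelihood test, unadjusted p = 0.0426). *CXCL1* differed by 0.16 ± 0.15 (adjusted p = 0.712), *CXCL3* by 0.34 ± 0.27 (adjusted p = 0.626), *CXCL5* by 0.08 ± 0.10 (adjusted p = 0.797) and *CXCL8* by -0.06 ± 0.30 (adjusted p = 0.961). Thus 0 of 5 members passed, where 5.7% of 15449 genes did. For *CXCL1*, *CXCL2* and *CXCL3* both IFN-β libraries were above both vehicle libraries, as for 21.7% of genes tested. DESeq2 called 0 as well, and 1 member had an unadjusted p under 0.05 in edgeR. In the same cells *ADAR* itself rose by 1.47 ± 0.13 (log2). In *ADAR* KO cells, IFN-β went with log2 fold changes of 4.82 ± 0.25 for *CXCL8*, 2.25 ± 0.26 for *CXCL3*, 1.74 ± 0.15 for *CXCL1*, 1.67 ± 0.15 for *CXCL2* and 0.38 ± 0.10 for *CXCL5*. Here 5 of 5 were past the threshold and higher, where 15.5% of genes were, and 5 did not overlap, as for 33.3% of genes. *CXCL5* was not past it in the fit of all 20 libraries (0.32), and its value was 0.29 to 0.45 with a library left out.

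**Figure D4:**
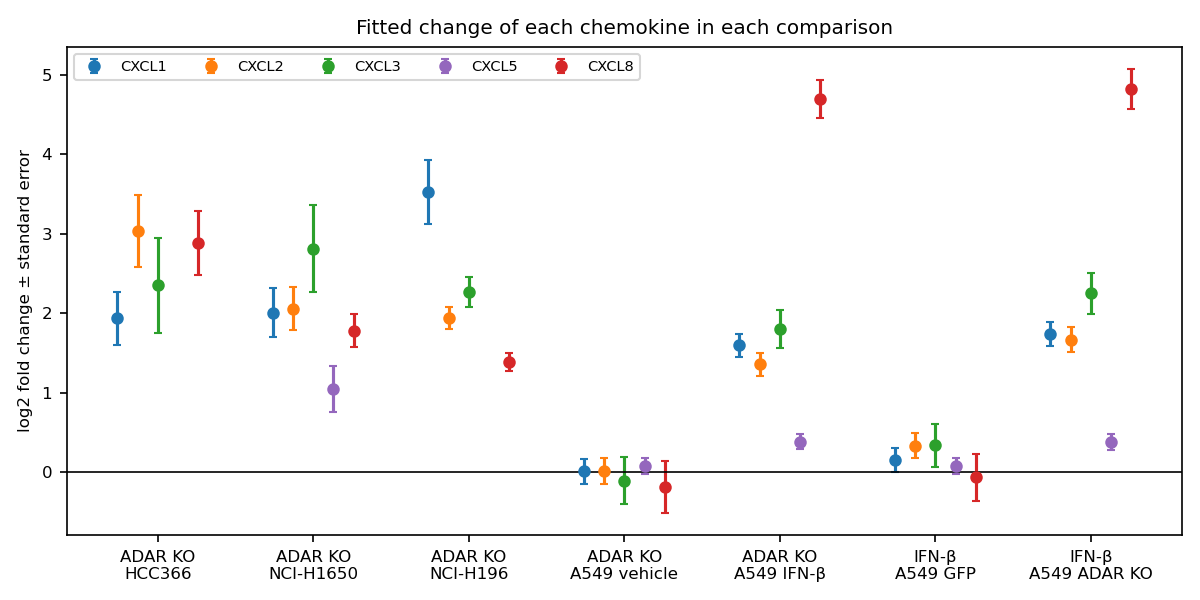
Fitted log2 fold change with its standard error for each chemokine gene in 7 comparisons: *ADAR* KO against GFP in each line and treatment, and IFN-β against vehicle in A549 cells of either target. In A549 the values with vehicle lie between -0.19 and 0.08, and *CXCL8* reaches 4.69 with *ADAR* KO under IFN-β and 4.82 with IFN-β in *ADAR* KO cells.

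With *CXCL8* at 14.9% and *CXCL5* at 47.3%, the mix in IFN-β-treated A549 *ADAR* KO cells differed from that in the other 3 A549 conditions, where *CXCL5* held 72.0% to 75.1% and *CXCL8* 1.13% to 1.25% of the summed RPKM. The summed RPKM was 350.5 and 471 there, and 181.9 to 213.5 in the other 6 A549 libraries. *CXCL8* at 95.0 and 180.2 CPM in those cells stayed below its 950 and 1332 CPM in NCI-H196 *ADAR* KO cells, though these CPM were scaled within each line.

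The receptors of these chemokines had almost no reads in the tumour cells. *CXCR1*, *CXCR2* and the decoy receptor gene *ACKR1* had at most 1 read over the libraries of any line. Of the 7 leukocyte and neutrophil markers, 5 had no read in A549 and 5 none in HCC366, and the summed level was at most 2.04 CPM in any condition. *PTPRC*, which encodes the pan-leukocyte marker CD45, was highest in NCI-H196, with 28 reads over 4 libraries.

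Genes of the NF-kB system also rose. This list and those below were chosen with earlier results of these data known, so their calls and adjusted p are a description. Whether the listed genes had a part in the chemokine values was not tested. Over all genes tested, 10.3% rose after *ADAR* KO in NCI-H196, 6.18% in NCI-H1650, 1.2% in HCC366 and 10.8% in A549 with IFN-β. Of 13 genes for NF-kB subunits and feedback inhibitors, 12 rose after *ADAR* KO in NCI-H196, 11 in NCI-H1650 and 13 in A549 with IFN-β. None fell (edgeR's quasi-likelihood test). With vehicle 0 of 13 passed in edgeR or DESeq2 (1, *NFKBIE*, had an unadjusted p under 0.05), and in HCC366 *TNFAIP3* alone passed. *TNFAIP3*, an NF-kB target whose product damps its signalling, rose by 1.99 ± 0.33 (log2) in HCC366 (adjusted p = 0.0323), 3.07 ± 0.15 in A549 with IFN-β, 1.75 ± 0.11 in NCI-H196 and 1.73 ± 0.12 in NCI-H1650. *NFKBIE*, an inhibitor that retains NF-kB in the cytoplasm, rose by 1.54 ± 0.17 in both NCI-H1650 and NCI-H196 and by 2.01 ± 0.15 in A549 with IFN-β. HCC366 gave a median log2 fold change over the list of 1.03, NCI-H1650 one of 0.81 and NCI-H196 one of 1.16. The A549 medians were 0.11 (vehicle) and 1.25 (IFN-β). The HCC366 and NCI-H196 counts depended on the fit: DESeq2 on the same genes called 5 of 13 in HCC366 and 2 of 13 in NCI-H196, where 3 were called without GFP sg1. In HCC366, 0 were called without GFP sg1 and 0 without GFP sg2. With IFN-β in A549 GFP cells 7 of these 13 rose, where 4.39% of genes did, among them *BIRC3*, *TNFAIP3* (0.90 ± 0.17, adjusted p = 0.000458) and *NFKBIE*. The interaction was past the threshold and positive for 10 of 13, where 4.07% of genes were, led by *TNFAIP3* at 2.77 ± 0.24.

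AP-1 and C/EBP genes, a list of 10, gave no decrease after *ADAR* KO. The increases numbered 10 in NCI-H196, 8 in NCI-H1650, 3 in HCC366, and in A549 8 with IFN-β and 0 with vehicle, also in DESeq2 (1, *ATF3*, had an unadjusted p under 0.05 there). *ATF3*, a stress-induced AP-1 family factor, rose by 4.57 ± 0.20 in A549 with IFN-β, 4.15 ± 0.40 in HCC366 (adjusted p = 0.0221), 1.90 ± 0.12 in NCI-H1650 and 1.57 ± 0.12 in NCI-H196. *FOSB*, an early-response AP-1 subunit gene, rose by 4.98 ± 0.28 in A549 with IFN-β. In HCC366, DESeq2 called 7 of 10, and 2 and 1 were called without GFP sg1 and sg2. In NCI-H196, DESeq2 on the same genes called 0 of 10, and 0 were called without GFP sg1. IFN-β in A549 GFP cells raised 1 of the 10, *CEBPD* (0.93 ± 0.17, adjusted p = 0.000261).

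Cytokines that act upstream of neutrophil chemokines or alongside them were measured in part. Of the 11 listed, 5 of 6 tested in A549 rose after *ADAR* KO with IFN-β and 0 of 6 with vehicle. *IL1A*, an alarmin that induces *CXCL8*, rose with IFN-β by 3.49 ± 0.51 (adjusted p = 1.01e-05), *CSF2*, which encodes the growth factor GM-CSF, by 4.18 ± 0.77 and *CCL20*, an attractant of CCR6-positive cells, by 3.33 ± 0.34. The interaction was past the threshold and positive for 4 of 6, where 4.07% of genes were. For *CSF2* it was 3.92 ± 1.78 and not past it (adjusted p = 0.224, edgeR's quasi-likelihood test). IFN-β in A549 GFP cells raised 2 of 6, *CSF1* (1.40 ± 0.12) and *IL6* (0.65 ± 0.16), where 4.39% of genes rose. In HCC366 2 of 8 tested rose, *CSF3*, which encodes the neutrophil growth factor G-CSF (4.16 ± 0.78, adjusted p = 0.0449), and *IL1B* (3.02 ± 0.44, adjusted p = 0.0273). There DESeq2 on the same genes called 4, and 0 were called without GFP sg1 and 0 without GFP sg2. In NCI-H1650 3 of 4 rose, led by *IL6* (1.15 ± 0.11), and in NCI-H196 9 of 9, where DESeq2 on the same genes called 0 of 9 and 2 of 7 tested were called without GFP sg1.

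Of 7 genes for factors that bind AU-rich or related mRNA elements, 0 passed in HCC366 and in A549 with vehicle, 4 rose in NCI-H1650, 4 rose and 2 fell in NCI-H196, where 7.5% of all genes fell, and 2 rose in A549 with IFN-β. *ZFP36*, which speeds the decay of such mRNAs, rose by 1.12 ± 0.22 in NCI-H196, 0.94 ± 0.13 in A549 with IFN-β (adjusted p = 1.92e-06) and 0.46 ± 0.12 in NCI-H1650. DESeq2 on the same genes called 0 of 7 in both NCI-H1650 and NCI-H196, and 1 of 7 in HCC366, where 2 had an unadjusted p under 0.05 in edgeR.

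**Figure D5:**
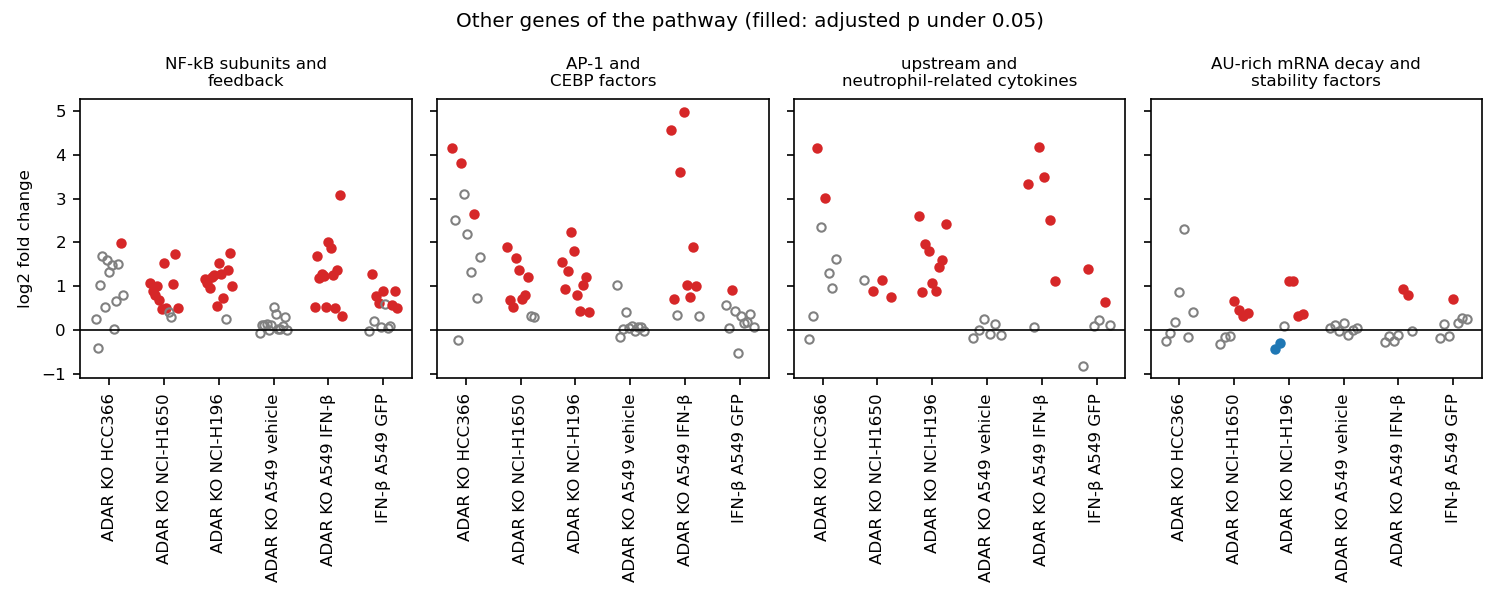
Log2 fold change of each tested gene of 4 lists (NF-kB, AP-1 and C/EBP, cytokines, AU-rich mRNA factors) in 6 comparisons; red points rose and blue points fell at an adjusted p under 0.05, open points did not pass. With vehicle in A549 no gene of these lists passed, and with IFN-β 13 of 13 NF-kB genes rose.

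Of 8 other CXC chemokine genes, no more than 3 were tested in a line. In NCI-H1650, *CXCL11* (1.79 ± 0.35, adjusted p = 0.000229) and *CXCL10* (1.54 ± 0.37, adjusted p = 0.00317) rose after *ADAR* KO, and in NCI-H196 by 1.70 ± 0.24 and 1.53 ± 0.50, respectively. The NCI-H196 values depend on a control library, GFP sg2, of 62679 reads. Of all 14094 genes tested there, DESeq2 on the same genes called 4, against 2513 in edgeR. In A549 *CXCL10* and *CXCL11* had too few reads to be tested. *CXCL10* had 0 reads with vehicle and 23 reads in GFP against 20 in *ADAR* KO cells with IFN-β, the condition in which *CXCL8* was 25.9-fold apart. In HCC366 *CXCL10* had 24 reads in the GFP and 4 in the ADAR libraries and was not tested. These reads are not scaled for depth, which was 1270414 and 3440707 reads on genes in the GFP and 1116439 and 1759633 in the ADAR libraries. *CXCL16*, a transmembrane chemokine, rose with IFN-β in A549 GFP cells (0.76 ± 0.20, adjusted p = 0.0142) and fell by 0.55 after *ADAR* KO with IFN-β (adjusted p = 0.0482). With vehicle the value was -0.63 ± 0.22 (adjusted p = 0.934), and the interaction was 0.08 ± 0.30.

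The platelet chemokine genes inside the cluster stayed nearly uncounted, with at most 1 read of *PF4* and 3 reads of *PPBP* in any condition. Of the EGFR ligand genes further along the same arm, *EREG* rose by 1.21 ± 0.13 and *AREG* by 1.04 ± 0.14 after *ADAR* KO in A549 with IFN-β, with interactions of 1.05 ± 0.18 and 1.20 ± 0.21. Both rose in NCI-H1650, *AREG* alone in HCC366 (3.44 ± 0.59, adjusted p = 0.0356) and neither in NCI-H196. The calls of the chemokine genes in HCC366 rested on both control libraries, and whether that of *AREG* did is not given here. *BTC* rose with IFN-β in A549 GFP cells (2.996 ± 0.44, adjusted p = 7.99e-06), where the chemokines did not pass.

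Of all genes outside the 6, those whose log2 CPM was most like the mean standardized log2 CPM of the 5 members that passed the filter were *KIAA0753*, *SAT1*, *NFKB1*, *ZNF562* and *ZNF689* in the 8 A549 libraries (Pearson's r from 0.997 to 0.994). In the 12 libraries of the other lines, after subtracting each line's mean, they were *HIVEP2*, *IL6*, *SAT1*, *NFKB1* and *ZNF280A* (r from 0.986 to 0.970). *SAT1*, which encodes a polyamine acetyltransferase, and *NFKB1*, which encodes an NF-kB subunit, were in both lists. These values describe libraries that share lines, depth and treatment.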

How the data were processed

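The authors made directional, rRNA-depleted libraries for paired-end sequencing, used STAR for alignment to hg19 and HTSeq for counting. The deposited counts are raw and cover 58233 Ensembl genes in 20 libraries. The annotation release is not given in the sources used here. HTSeq's summary lines were left out (51.3% to 93.3% of all entries per library: alignments that were not unique, outside genes or ambiguous). Symbols matched 55727 identifiers. No files were identical.

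Counts were tested with edgeR 4.0.16 (R 4.3.3): TMM scaling, filterByExpr by condition, quasi-likelihood F-test, Benjamini-Hochberg adjustment over all genes of a fit, threshold 0.05, prior count 0.125. The standard error is the absolute log2 fold change divided by the square root of F. HCC366, NCI-H1650 and NCI-H196 were fitted separately, A549 in a single fit of 8 libraries, and the comparison of lines used all 20. CPM are reads on the gene per 1000000 reads on the genes that passed the filter, after TMM scaling. RPKM used exon lengths of a GENCODE annotation on GRCh37. Likeness used log2 CPM with a prior count of 2. DESeq2 1.42.0, other scaling, no filter, replicate blocks and leaving out each library were alternatives. The scripts were tested on simulated data.

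The members and all gene lists were chosen with earlier results of these data known. Named beyond the 6 members are *ADAR*, at most 3 genes per list and comparison with the largest change past the threshold, those genes in other comparisons, and the 5 most alike genes. *CXCL10* in A549 and HCC366, *PF4* and *PPBP* were named after their values were seen. The sgRNA numbers do not mark a shared batch in the labels, and same-numbered libraries did not deviate together over all genes, so no block was used in the main fits. In A549 a number names the same sgRNA with vehicle and with IFN-β, and a fit with a block for each sgRNA was an alternative. P-values and standard errors rest on 2 sgRNAs per condition and not on repeats of the experiment. The spread used by edgeR is partly shared across genes, so a printed standard error can be smaller than the gap between the 2 libraries. RefSeq promoters covered all 6 genes.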

Additional observations from a re-analysis of the deposited data

Results flagged for a closer look

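For 4 of the 5 tested members, the effect of *ADAR* KO in A549 cells differed between IFN-β and vehicle in the interaction term, which drew attention to them. The effect with IFN-β minus the effect with vehicle was 4.88 (log2) for *CXCL8*, 1.91 for *CXCL3*, 1.59 for *CXCL1* and 1.34 for *CXCL2*. These genes were chosen with this interaction known, so the values are a description. In each case both IFN-β-treated *ADAR* KO libraries were above the other 6 A549 libraries. No member's values were far from the others in a way that could be judged within a condition, because each condition had 2 libraries.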

How the results depend on the processing

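Of 1217 values of a member in a comparison under an alternative, 1124 kept their direction and their side of the threshold, 43 lost and 21 gained a call and 29 changed sign. DESeq2 called 1 of 5 members in NCI-H1650 (main: 5), because its filter on mean counts left 4 without an adjusted p, and 0 in NCI-H196 (main: 4). DESeq2 on the genes of the edgeR filter, chosen after seeing the data, called 4 and 0. With a library left out in turn, the members called ranged from 0 to 4 in HCC366 (main: 3; 0 without GFP sg1 and 0 without GFP sg2), from 3 to 5 in NCI-H1650 (3 without ADAR sg2), from 1 to 4 in NCI-H196 (1 without GFP sg1) and from 15 to 26 between lines (main: 23; 15 without NCI-H196 GFP sg1). A fit with 1 library in an arm assumes that it varies like the others.

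Sign changes were mostly in values near 0. The difference of *CXCL2* between NCI-H196 and A549 (main: 0.01) was -0.026 with DESeq2, -0.0232 with no filter on low counts and -1.31 to 0.040 with a library left out. The effect of IFN-β on *CXCL8* in A549 GFP cells (main: -0.06) was 0.0028 with DESeq2, 0.00031 with DESeq2 on the genes of the edgeR filter, 0.0030 with the replicate block and -0.36 to 0.53 with a library left out, and that on *CXCL5* was -0.0081 to 0.16. With a library left out, the effect of *ADAR* KO in A549 with vehicle ranged from -0.092 to 0.14 for *CXCL1*, -0.019 to 0.066 for *CXCL2*, -0.28 to 0.11 for *CXCL3* and -0.56 to 0.41 for *CXCL8*. Between lines, *CXCL8* in NCI-H1650 minus A549 ranged from -0.086 to 0.83, *CXCL2* in HCC366 minus NCI-H196 from -0.80 to 0.65, and *CXCL3* from -2.49 to 7.24 in HCC366 minus NCI-H196, from -4.63 to 4.98 in NCI-H1650 minus NCI-H196 and from -8.49 to 0.76 in NCI-H196 minus A549, where the far end is a fit against 0 reads in the NCI-H196 library of 62679 reads.

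Same-numbered libraries did not deviate together over all genes (correlation -0.253 in HCC366, -0.0209 in NCI-H196, -0.0163 in NCI-H1650 and -0.0778 to -0.00131 in A549). In A549, though, each sgRNA was used with vehicle and with IFN-β, which pairs those libraries by construct. *ADAR* mRNA was higher in ADAR sg2 than in sg1 with vehicle (250 against 161 CPM) and with IFN-β (895 against 691 CPM). With a block for each sgRNA of A549, 4 members and 824 genes were called in the interaction. With the replicate block by sgRNA number, 5 members were called in NCI-H1650, 4 each in HCC366 and NCI-H196, 0 with vehicle and 5 with IFN-β in A549, 4 in the interaction and 25 between lines. In HCC366 the crossed pairing, added after seeing the data, called 4 members and 960 genes. Of all genes, 139 were called in HCC366, against 298 with DESeq2, 300 with the block, 903 with no filter and 3701 in the fit of all 20 libraries. In NCI-H1650 they were 1250, against 412 with DESeq2 and 159 in the fit of all 20. In NCI-H196 they were 2513, against 1552 with no filter, 11 with DESeq2, 115 with the block and 98 in the fit of all 20. In A549 with vehicle 19 became 8, 30 and 5 with DESeq2, with no filter and in the fit of all 20. That fit also lowered the count with IFN-β from 2622 to 1087, the interaction from 780 to 164, and the effect of IFN-β from 880 to 531 in GFP and from 3788 to 2067 in *ADAR* KO cells. The causes were not tested.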
